A study of Mus musculus with 6 samples.

Results

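The genes described here make cholesterol and fatty acids. They were chosen by name: 31 enzymes, regulators and carriers of both pathways, with every probe set (a group of oligonucleotide probes for 1 transcript) that the array's annotation assigns to 1 of them. Of these, 30 genes had a probe set, with 70 probe sets in all of 45101 on the array. All 30 passed the filter on dim signal, and they form part of the 12285 genes tested. Acat2, an acetoacetyl-CoA thiolase, had no probe set under its own symbol and was not analysed here.

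Mouse E14 embryonic stem (ES) cells of the 129P2/OlaHsd background, carrying the reporter Msgn1RepV (Msgn1-Venus), were differentiated as a monolayer toward paraxial mesoderm. The day 4 group holds 3 arrays and the day 3 group 3 arrays, each from a sample labelled as a biological replicate, and Venus-positive cells were sorted for RNA on that day. Both groups received the same medium, with 15% fetal bovine serum, 0.5% DMSO, 10 ng/mL R-spondin3 (a Wnt potentiator) and 200 ng/mL Noggin (a BMP antagonist), so the groups differ by 1 day of culture and there is no untreated control. The cells are of 1 line, the gate rests on a reporter of 1 gene, and a shift in the mix of sorted cells cannot be told apart from a change within cells.

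Cells build cholesterol from acetyl-CoA. The mevalonate steps yield isoprenoid units that are joined into farnesyl diphosphate, and the sterol branch then makes squalene, closes it into lanosterol and trims lanosterol to cholesterol. Cytosolic acetyl-CoA also feeds fatty acid synthase, whose product is lengthened by elongases and given double bonds by desaturases. The membrane-bound transcription factors SREBP-1 and SREBP-2, encoded by Srebf1 and Srebf2, raise the transcription of both pathways when sterols are scarce, and Insig proteins hold them back in the endoplasmic reticulum when sterols are plentiful. Serum brings ready-made lipid to cultured cells, and cholesterol is also required in the embryo for membranes and for Hedgehog signalling.

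SREBPs bind promoters together with the factors NF-Y and Sp1, so the promoter windows of 5 genes that changed are shown with the letters of their motifs. Each window is RefSeq sequence of the mouse build GRCm38.p6, written from its upstream end along the gene's strand, from 250 bases before to 50 bases after the annotated start. Capitals mark the NF-Y box (CCAAT, or ATTGG where it lies on the other strand) and, in Hmgcs1, the sterol regulatory element TCACNCCAC. Fads2, which also changed and has 1 window, is not shown, and its window holds neither motif. Of the genes shown, the first 3 were higher at day 4 and the last pair lower. In the same order the windows lie at chr13:119690101-119690400 (plus strand), chr8:122443373-122443672 (minus strand), chr8:64733529-64733828 (minus strand), chr1:169969156-169969455 (minus strand) and chr11:120824498-120824797 (minus strand).
Hmgcs1: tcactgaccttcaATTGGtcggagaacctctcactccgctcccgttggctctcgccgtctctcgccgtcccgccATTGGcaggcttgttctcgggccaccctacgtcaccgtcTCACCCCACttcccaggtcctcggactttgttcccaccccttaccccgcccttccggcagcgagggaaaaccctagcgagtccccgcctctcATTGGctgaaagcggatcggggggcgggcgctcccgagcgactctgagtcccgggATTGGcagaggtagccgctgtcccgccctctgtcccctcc
Mvd: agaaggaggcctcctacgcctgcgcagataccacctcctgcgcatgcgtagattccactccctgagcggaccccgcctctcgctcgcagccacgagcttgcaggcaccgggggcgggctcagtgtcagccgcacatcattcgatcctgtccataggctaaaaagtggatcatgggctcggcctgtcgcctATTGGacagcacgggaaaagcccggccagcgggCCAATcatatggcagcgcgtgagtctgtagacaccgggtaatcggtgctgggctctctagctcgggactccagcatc
Msmo1: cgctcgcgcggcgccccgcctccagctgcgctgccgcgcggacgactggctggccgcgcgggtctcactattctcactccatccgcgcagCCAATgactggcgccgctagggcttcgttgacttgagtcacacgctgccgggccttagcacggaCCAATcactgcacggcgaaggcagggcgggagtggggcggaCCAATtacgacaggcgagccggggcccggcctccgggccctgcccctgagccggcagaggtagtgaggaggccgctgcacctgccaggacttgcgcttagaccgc
Hsd17b7: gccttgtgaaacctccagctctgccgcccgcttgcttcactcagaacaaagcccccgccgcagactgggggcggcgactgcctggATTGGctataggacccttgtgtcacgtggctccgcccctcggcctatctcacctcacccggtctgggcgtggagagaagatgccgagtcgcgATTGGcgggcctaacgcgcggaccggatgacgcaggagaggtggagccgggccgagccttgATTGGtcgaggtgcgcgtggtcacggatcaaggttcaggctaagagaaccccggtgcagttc
Fasn: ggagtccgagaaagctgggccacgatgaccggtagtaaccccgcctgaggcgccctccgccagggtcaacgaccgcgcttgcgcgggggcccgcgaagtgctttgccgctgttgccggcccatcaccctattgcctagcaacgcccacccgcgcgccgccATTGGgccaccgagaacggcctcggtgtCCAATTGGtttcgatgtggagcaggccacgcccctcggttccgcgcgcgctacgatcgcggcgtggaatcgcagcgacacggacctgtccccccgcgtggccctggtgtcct

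NF-Y boxes were common in these windows, in genes of either direction. Hmgcs1 held 4 NF-Y boxes, Mvd 2, Msmo1 3, Hsd17b7 3 and Fasn 3, a pair of which overlap each other by 2 letters. Of 31 members, 24 had at least 1 promoter window in the RefSeq table, with 29 windows between them. The NF-Y box was found on either strand in 21 of the 29 windows (72.4%), against 37.4% of all 32851 windows. Counted by gene, 20 of 24 members held it (83.3%), against 42.9% of the other genes tested. It was held by 4 of 5 members that were higher at day 4, by both that were lower, and by 14 of 16 that did not pass the test. The members without it were Acaca, Elovl6, Fads2 and Acat2. The Sp1 box GGGCGG, searched on both strands like the others, stood in 22 of 29 member windows (75.9%) against 35.7% of all windows. By gene that was 83.3% of members and 69.0% of the other genes tested. The E-box CACGTG, which reads the same on both strands, was in 4 member windows (13.8%) against 7.15% of all windows. By gene that was 16.7% of members and 11.7% of the other genes tested. The windows are those of Hsd17b7, Insig1, Sc5d and 1 of the 3 windows of Dhcr7. The sterol regulatory element was found in 1 member window, that of Hmgcs1, and in 1.24% of all windows. By gene that was 4.17% of members and 1.45% of the other genes tested. Matches of different motifs overlapped in 0 places in these windows. A match of letters is not a measured binding site, and a window without one says only that these letters are not in it.

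**Figure D1:**
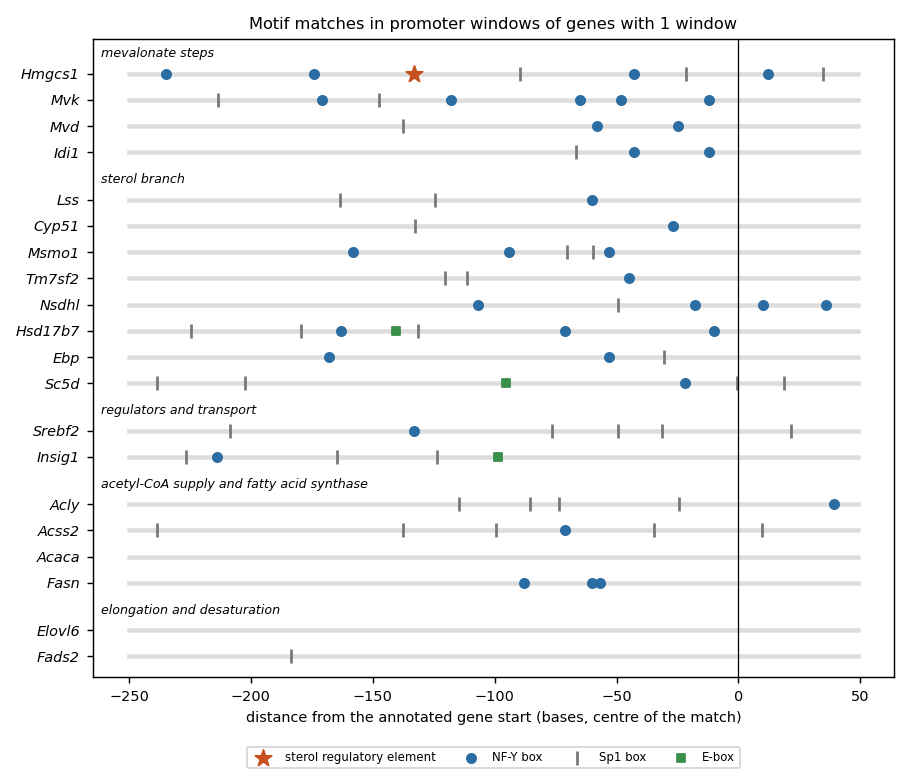
Matches of 4 motifs in the promoter windows of the tested members with 1 window in the RefSeq table, ordered by role. Acat2, which was not tested, is left out. The horizontal axis is the distance in bases from the annotated gene start, each grey bar is 1 window, and symbols mark the centre of each match. Most windows hold NF-Y boxes, the window of Hmgcs1 holds the only sterol regulatory element, and those of Acaca and Elovl6 hold none of the 4 motifs.

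The deposited signals shared a common level, with trimmed means of 160.4 to 161.6 at day 4 and 160.7 to 162.1 at day 3. By the Gapdh and Actb controls, day 4 replicate 1 was unlike the rest. For Gapdh the 3′ signal was 14.0 times the 5′ signal on that array, but 2.63 and 3.19 times in the remaining day 4 samples and 2.43 to 2.64 times in day 3 samples. The same ratio for Actb was 6.71 there and 2.77 to 3.84 elsewhere. This array had the highest day 4 signal in 18 of the 30 genes and the lowest in 7. The same count was not made over all genes, so it does not set these genes apart. Counts of calls without day 4 replicate 1 are given for the members, their roles, their probe sets and the lists where they differ. Some of these counts were chosen after seeing the data.

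**Figure D2:**
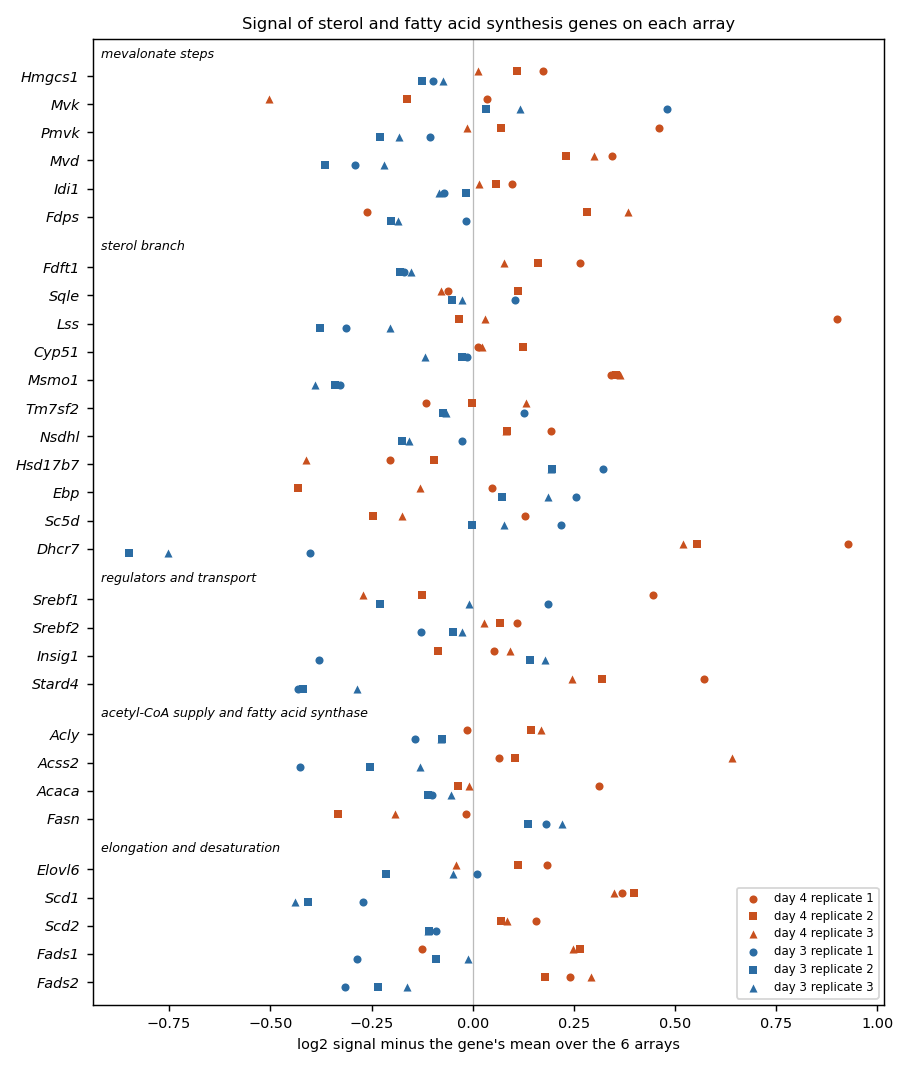
Signal of the 30 genes on each of the 6 arrays. The horizontal axis is log2 signal minus the gene's mean over all arrays, orange symbols are day 4, blue symbols are day 3, and symbol shape gives the replicate. The days do not overlap in 18 genes that were higher at day 4, among them Dhcr7, Msmo1, Scd1 and Stard4, and in 3 that were lower, Hsd17b7, Ebp and Fasn.

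Most of these genes had a positive change at day 4, and those that rose were spread over the mevalonate steps, the sterol branch, a sterol carrier and the desaturases. Of the 30 genes, 9 rose and 2 fell at day 4 (limma with Benjamini-Hochberg adjustment over 12285 genes, threshold 0.05), where 22.2% of all genes tested were called, 11.5% higher and 10.7% lower. The higher genes were Hmgcs1, Mvd, Fdft1, Msmo1, Dhcr7, Stard4, Scd1, Scd2 and Fads2, and the lower ones were Hsd17b7 and Fasn. The change was positive in 24 and negative in 6, with a median of 0.20 on the log2 scale, while the median over all genes tested was -0.01 and 48.7% of those changes were positive. Dhcr7 was the only called member with a change of over 2-fold. The 3 values of day 4 all lay above those of day 3 in 18 members and below them in 3, against 20.7% and 20.6% of all genes tested, or 41.4% in either direction. Without day 4 replicate 1 the counts were 14 higher and 4 lower, where 28.7% of all genes were called, 14.1% higher and 14.5% lower. The days of the remaining arrays did not overlap in 20 members that were higher and 5 that were lower, against 27.1% and 28.1% of all genes tested. By role, 3 mevalonate genes were higher and 1 lower, 4 and 2 of the sterol branch, 1 and 0 of the regulators and carriers, 2 and 1 of acetyl-CoA supply and fatty acid synthase, and 4 and 0 of elongation and desaturation. The 7 genes added were Fdps, Lss, Acly, Acss2 and Fads1, higher, and Mvk and Ebp, lower. Replicates of these genes lay close together, with a median SD of log2 signal of 0.12 at day 4 and 0.08 at day 3, against 0.18 and 0.14 over all genes tested. The sets were not matched for signal level, and the members had mean log2 signals of 6.33 to 12.7.

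**Figure D3:**
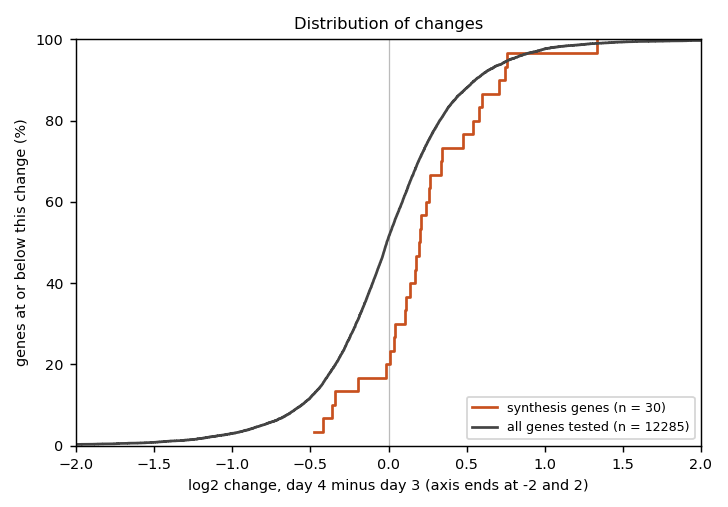
Cumulative distribution of the log2 change (day 4 minus day 3) for the 30 synthesis genes in orange and for all 12285 genes tested in black, with the percent of genes at or below each change on the vertical axis. The median of the synthesis genes is 0.20 and that of all genes -0.01, and the axis ends at -2 and 2.

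The mevalonate steps held 6 genes on the array, of which 2 were higher at day 4 and 0 lower. Over all genes tested, 22.2% were called. Hmgcs1 encodes the cytosolic synthase that makes hydroxymethylglutaryl-CoA. Its brightest probe set read 7618, 7286 and 6808 on the day 4 arrays, against 6305, 6189 and 6415 on the day 3 arrays. Every day 4 value lay above every day 3 value, and the change was 0.20 ± 0.06 (log2, SE; limma adjusted p = 0.0302). This call was lost when day 4 replicate 2 or any day 3 replicate was dropped (adjusted p up to 0.108), when arrays were centred on their medians (adjusted p = 0.0966), without the variance trend (adjusted p = 0.175) and with no filter on dim signal (adjusted p = 0.106). All 5 probe sets of Hmgcs1 were nevertheless higher when each was tested on its own, by 0.20 to 1.32 on the log2 scale. The dimmest of them read 180.2, 205.0 and 219.0 at day 4, against 77.7, 81.0 and 83.0 at day 3 (adjusted p = 0.000377 over 27026 probe sets).

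Mvd, the decarboxylase that yields isopentenyl diphosphate, read 155.5, 143.7 and 151.0 at day 4, against 100.3, 95.2 and 105.3 at day 3. The days were well separated, and the change was 0.58 ± 0.12 (adjusted p = 0.00759). The call was lost when its probe sets were averaged (change 0.45, adjusted p = 0.0554) and when probe sets with a suffixed name were left out (change 0.32, adjusted p = 0.28). Its other probe set, at 85.0 ± 22.0 in day 4 and 66.5 ± 1.70 in day 3 cells, changed by 0.32 and did not pass.

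Mvk and Pmvk, the kinases that phosphorylate mevalonate in turn, did not pass and leaned in opposite directions. Mvk averaged 78.9 ± 14.5 at day 4 and 105.4 ± 18.0 at day 3 (mean ± SD, n = 3 arrays a day here and below), a change of -0.42 with a 95% interval of -0.83 to -0.01 (limma adjusted p = 0.134). Pmvk averaged 338.9 ± 61.6 at day 4 and 264.4 ± 11.5 at day 3, and its days did not overlap (change 0.34, limma adjusted p = 0.0968). Without day 4 replicate 1 its change was 0.20 (adjusted p = 0.149). Idi1, the isomerase of the isoprenoid unit, changed by 0.11 (interval -0.03 to 0.26). Fdps, which makes farnesyl diphosphate, read 225.6, 328.8 and 352.7 at day 4, against 267.5, 235.1 and 238.2 at day 3. Day 4 replicate 1 lay below all day 3 values while the other day 4 arrays lay above them. The change was 0.27 (adjusted p = 0.277), and 0.47 without that array (adjusted p = 0.00647).

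**Figure D4:**
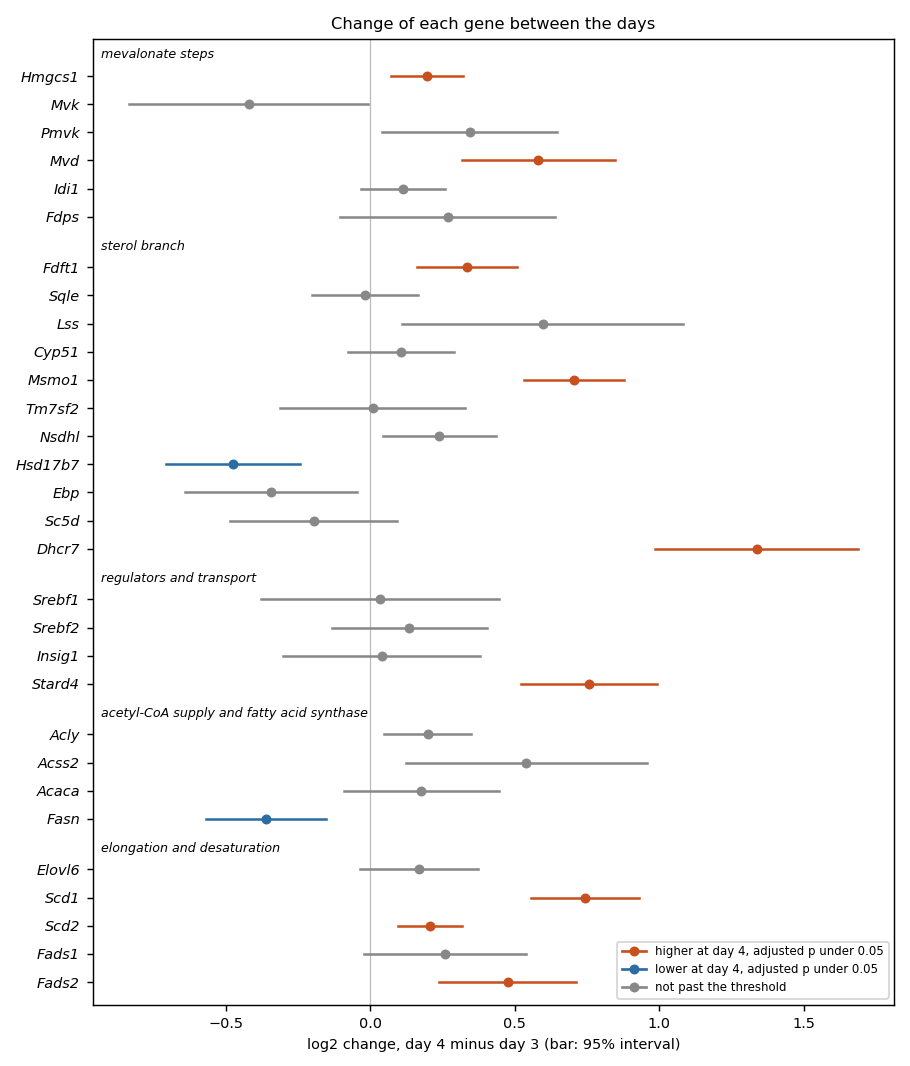
Change of each of the 30 genes between the days, by role. The horizontal axis is the log2 change, day 4 minus day 3, with bars for the 95% interval of the limma fit to 3 arrays a day. Orange marks the 9 genes higher at day 4, blue the 2 lower, and grey the 19 that did not pass. Dhcr7 has the highest change, 1.34, and Hsd17b7 the lowest, -0.47.

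The sterol branch held 11 genes, of which 3 were higher at day 4 and 1 lower, where 22.2% of all genes tested were called. The highest change of all members was that of Dhcr7, the reductase of the last step to cholesterol. Its only probe set read 456.5, 352.4 and 344.1 at day 4, against 181.6, 133.0 and 142.4 at day 3. The lowest day 4 value was well above the highest day 3 value, and the rise was 2.52-fold (log2 change 1.34 ± 0.16, adjusted p = 0.00046). Its change exceeded that of 99.0% of all genes tested.

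Msmo1 encodes a methyl oxidase that takes part in the removal of methyl groups from the sterol ring. It read 967.7, 976.1 and 983.7 at day 4, against 608.9, 603.5 and 583.2 at day 3. The replicates of each day lay within a few percent of each other, and the change was 0.71 ± 0.08 (adjusted p = 0.000302). Its dimmer probe set also rose, by 1.02 (adjusted p = 0.00303 over all probe sets). Hsd17b7 encodes the ketosteroid reductase that acts in the same demethylation sequence, and it went the other way. It read 574.6, 620.4 and 498.3 at day 4, against 828.8, 759.0 and 757.3 at day 3. No day 4 value reached a day 3 value, and the change was -0.47 ± 0.10 (adjusted p = 0.00996). Its 4 probe sets all had negative changes, -0.87 to -0.45, and 2 of them passed.

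Nsdhl, the dehydrogenase between these steps, averaged 751.0 ± 33.3 at day 4 and 636.4 ± 36.3 at day 3, with days that did not overlap (change 0.24, limma adjusted p = 0.0771). Fdft1, the squalene synthase at the head of the branch, read 1478, 1376 and 1298 at day 4, against 1095, 1087 and 1108 at day 3. All day 4 values were higher (change 0.33 ± 0.08, adjusted p = 0.0131), but the call was lost without day 3 replicate 2 or 3 (adjusted p = 0.0536 in each case) and without the variance trend (adjusted p = 0.0538). It was lost too when suffixed probe sets were left out, where the brightest one left changed by 0.20 (adjusted p = 0.192), and when all its probe sets, 2 of them dim, were averaged (change 0.03, adjusted p = 0.966).

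Sqle, the squalene epoxidase, averaged 1552 ± 116 at day 4 and 1570 ± 91.3 at day 3, and its days overlapped. The change was -0.02 with an interval of -0.20 to 0.17, and its sign turned with quantile normalization (0.01). Lss, which closes squalene epoxide into lanosterol, read 831.1, 435.3 and 454.7 at day 4, against 358.6, 343.0 and 387.0 at day 3. Day 4 replicate 1 was far above the rest. The change was 0.60 (adjusted p = 0.0773), and 0.30 without that array (adjusted p = 0.0327). Its dimmer probe set read 181.2, 135.3 and 136.3 at day 4, against 56.5, 63.4 and 48.3 at day 3, and rose by 1.42 (adjusted p = 0.00104 over all probe sets).

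Cyp51, the lanosterol demethylase, changed by 0.11 (interval -0.08 to 0.29), and the mean over its probe sets by -0.003. Tm7sf2, a sterol reductase, averaged 85.8 ± 7.41 at day 4 and 85.3 ± 6.92 at day 3. Its change of 0.01 had an interval of -0.31 to 0.33 and turned negative with quantile normalization (-0.06) and median centring (-0.02). Ebp, the sterol isomerase, averaged 298.2 ± 48.7 at day 4 and 375.2 ± 24.1 at day 3. All of its day 4 values were lower (change -0.34, limma adjusted p = 0.0948), and it passed without day 4 replicate 1 (adjusted p = 0.0121). The probe sets of Sc5d, a sterol desaturase, disagreed. The brightest changed by -0.19 (interval -0.48 to 0.09), while a dimmer probe set read 98.8, 113.8 and 117.5 at day 4, against 82.2, 66.1 and 78.9 at day 3, and rose by 0.54 (adjusted p = 0.0379 over all probe sets).

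Of the 4 regulators and carriers, 1 was higher at day 4 and 0 lower, where 22.2% of all genes tested were called. Stard4, a cytosolic carrier of cholesterol, read 1045, 877.6 and 833.0 at day 4, against 521.0, 526.1 and 576.4 at day 3. The days were far apart, and the change was 0.76 ± 0.10 (adjusted p = 0.00113). Of its 3 probe sets a second rose by 0.53 (adjusted p = 0.0207 over all probe sets), and the third changed by -0.15 and did not pass.

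The transcripts of the regulators themselves did not pass. Srebf1 read 536.2, 361.1 and 326.3 at day 4, against 447.7, 336.0 and 391.2 at day 3. The days overlapped, and its change of 0.03 (interval -0.38 to 0.45) became -0.18 without day 4 replicate 1. Srebf2 read 118.0, 114.7 and 111.5 at day 4, against 100.1, 105.8 and 107.5 at day 3. The order was clean but the step was small, 0.14 (interval -0.13 to 0.40), and the mean over its 2 probe sets changed by -0.13. Insig1 read 366.1, 332.6 and 376.3 at day 4, against 271.2, 389.5 and 399.3 at day 3. Its 1 low day 3 value was replicate 1, and the change was 0.04 (interval -0.30 to 0.38), or -0.14 without that array. All 3 intervals include a change of the size measured for Fdft1. Signals here are transcript levels, and the processing of SREBP proteins was not measured.

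Of the 4 genes that supply acetyl-CoA and build the fatty acid chain, 0 were higher and 1 lower. The share called over all genes tested was 22.2%. Fasn, the fatty acid synthase, read 1172, 941.2 and 1037 at day 4, against 1344, 1302 and 1380 at day 3. All day 4 values were lower, and the change was -0.36 ± 0.09 (adjusted p = 0.0212). Its call was lost when any single array other than day 4 replicate 1 was dropped (adjusted p up to 0.0911) and without the variance trend (adjusted p = 0.0734). With 1 array dropped the change stayed between -0.44 and -0.28.

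The other 3 had positive changes and days that did not overlap. Acly, the citrate lyase that makes cytosolic acetyl-CoA, read 3374, 3760 and 3829 at day 4, against 3084, 3231 and 3225 at day 3 (change 0.20, adjusted p = 0.0602, and 0.00442 without day 4 replicate 1). It also passed with quantile normalization (adjusted p = 0.0235), but of its 5 tested probe sets 3 had negative changes, none of them past the threshold, and the mean over all 6 changed by -0.05. Acss2, which makes acetyl-CoA from acetate, read 84.0, 86.4 and 125.2 at day 4, against 59.8, 67.3 and 73.3 at day 3 (change 0.54, adjusted p = 0.0657, and 0.0275 without day 4 replicate 1). Acaca, the carboxylase that commits acetyl-CoA to fatty acids, averaged 304.2 ± 42.1 at day 4 and 267.4 ± 5.61 at day 3 (change 0.18, interval -0.09 to 0.44, and 0.066 without day 4 replicate 1).

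Of the 5 elongation and desaturation genes, 3 were higher at day 4 and 0 lower, where 22.2% of all genes tested were called. Scd1 and Scd2 encode stearoyl-CoA desaturases, which make monounsaturated fatty acids. Scd1 read 1025, 1047 and 1012 at day 4, against 658.5, 598.9 and 586.2 at day 3. The days were far apart relative to their spread, and the rise was 1.67-fold (log2 change 0.74 ± 0.08, adjusted p = 0.000336). Its other probe set changed by 0.15 and did not pass. Scd2 read 7166, 6743 and 6812 at day 4, against 6032, 5959 and 5956 at day 3. The separation was complete but the step was small (change 0.21 ± 0.05, adjusted p = 0.0152), and the call was lost without day 3 replicate 2 or 3 (adjusted p = 0.0602 and 0.0718). It was also lost when arrays were centred on their medians (adjusted p = 0.06), without the variance trend (adjusted p = 0.137), with no filter (adjusted p = 0.0696) and when its 3 probe sets were averaged (change 0.13, adjusted p = 0.54).

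Fads2, the first desaturase of polyunsaturated fatty acid synthesis, read 249.3, 239.2 and 258.8 at day 4, against 169.6, 179.6 and 188.6 at day 3. The days did not overlap (change 0.47 ± 0.11, adjusted p = 0.0112). Each of its 3 probe sets passed on its own, with changes of 0.47, 0.69 and 0.73. Fads1, the desaturase that acts later in the same sequence, averaged 768.8 ± 112 at day 4 and 639.9 ± 61.4 at day 3 (change 0.26, limma adjusted p = 0.169). It passed without day 4 replicate 1, whose value of 639.6 lay among the day 3 values (change 0.39, adjusted p = 0.00925). Elovl6, an elongase of saturated and monounsaturated chains, averaged 1354 ± 107 at day 4 and 1204 ± 95.6 at day 3, with overlapping days (change 0.17, interval -0.04 to 0.37).

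Probe sets of the same gene mostly went the same way. Tested on their own, 19 of 63 member probe sets were higher and 3 lower, where 17.7% of all 27026 probe sets tested were called, 9.96% higher and 7.78% lower. Without day 4 replicate 1 these were 27 higher and 4 lower, where 23.3% of all probe sets were called, 12.6% higher and 10.8% lower. Of 19 genes with more than 1 tested probe set, 14 had all of them in the same direction and 0 had probe sets called in opposite directions. The exceptions in direction were Acly, Cyp51, Sc5d, Srebf2 and Stard4. Probe sets of a gene share its samples and are not replicates.

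**Figure D5:**
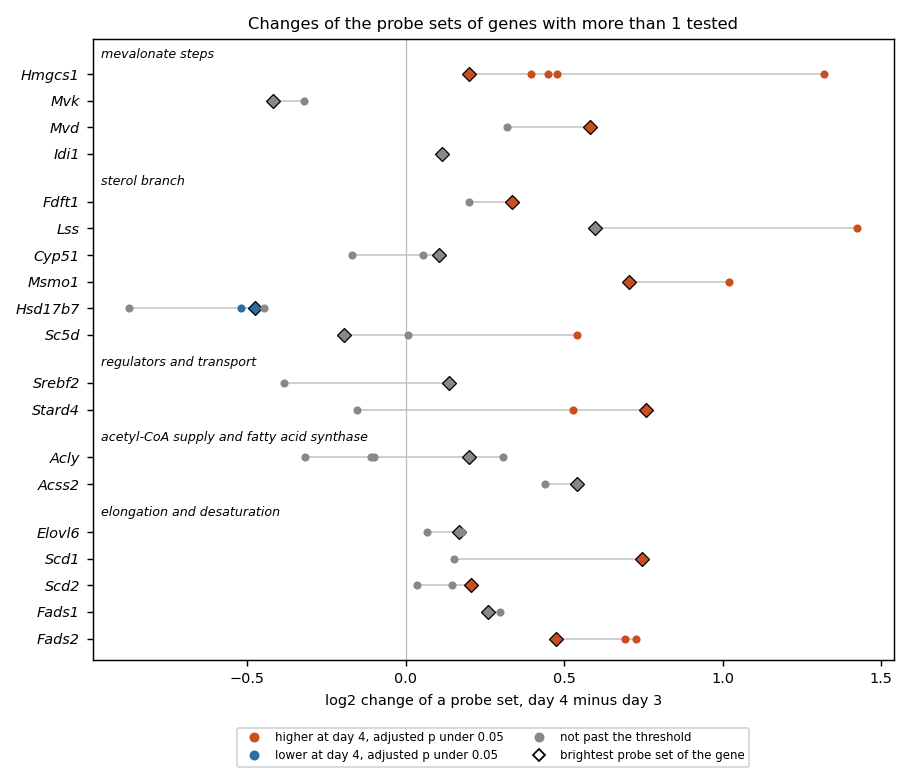
Change of each tested probe set for the 19 genes with more than 1, on the log2 scale, day 4 minus day 3. Diamonds mark the brightest probe set, which stands for the gene, orange marks probe sets higher at day 4, blue lower, and grey those that did not pass. All 5 of Hmgcs1 and all 3 of Fads2 are orange, and those of Acly and Sc5d lie on both sides of 0.

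Other genes of lipid metabolism were read from lists of their neighbours in the pathways. Of all genes tested, 11.5% were called higher and 10.7% lower. Of 7 further genes of sterol synthesis and SREBP processing with a probe set, 1 was higher and 0 lower, with a median change of 0.03. It was Mbtps2, a protease that releases SREBPs from the membrane, which averaged 677.1 ± 73.2 at day 4 and 519.1 ± 12.8 at day 3 (change 0.38 ± 0.10, limma adjusted p = 0.0247). Of 12 genes of sterol uptake, efflux and storage, 4 were higher and 0 lower, with a median change of 0.14. Mylip, a ubiquitin ligase that removes lipoprotein receptors, rose by 0.77, the lipoprotein receptors Lrp1 and Scarb1 by 0.79 and 0.90, and Npc1, which exports cholesterol from lysosomes, by 0.50 (adjusted p = 0.00113, 0.00172, 0.00801 and 0.0178).

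Of 15 further genes of fatty acid synthesis and activation, 1 was higher and 3 lower, with a median change of -0.15. The share called over all genes tested was 22.2%. Fabp5, a fatty acid binding protein, read 4588, 4558 and 4728 at day 4, against 6673, 6566 and 6738 at day 3, a fall of 0.53 ± 0.05 on the log2 scale (adjusted p = 0.000144). Acsl5, an acyl-CoA synthetase, and Me1, the malic enzyme that supplies NADPH, changed by -0.82 and -0.50, and Lpin1, a phosphatidate phosphatase, by 0.79 (adjusted p = 0.000479, 0.0379 and 0.00676). Of 13 tested genes of fatty acid oxidation, 1 was higher and 3 lower, with a median change of -0.13. Hadhb and Acadl, enzymes of mitochondrial oxidation, changed by -0.56 and -0.46, Eci1 by -0.58 and Decr1 by 0.50 (adjusted p = 0.00251, 0.00494, 0.0148 and 0.00466). Without day 4 replicate 1 the further sterol synthesis genes had 2 higher and 1 lower. Those of uptake, efflux and storage had 5 and 0, and those of fatty acid synthesis and activation 2 and 3. That fit called 28.7% of all genes, 14.1% higher and 14.5% lower.

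Markers of cell identity moved between the same days, where 11.5% of all genes tested were called higher and 10.7% lower. The gate's own gene Msgn1 averaged 33.2 ± 7.06 at day 4 and 74.6 ± 15.0 at day 3 (change -1.17, limma adjusted p = 0.00723). Of the 7 presomitic markers 1 was higher and 1, Msgn1, lower, with summed signals of 4555 to 4839 at day 4 and 2929 to 3135 at day 3. The higher one was Rspo3, which encodes R-spondin3 and averaged 2695 ± 257 at day 4 and 1275 ± 39.3 at day 3 (change 1.08, limma adjusted p = 5.09e-05). Tbx6, Dll1, Dll3, Hes7 and Lfng did not pass. All 7 markers of pluripotent and epiblast cells were lower at day 4, and their summed signal was 8117 to 8284 at day 4 and 11397 to 12256 at day 3. Of the 5 cardiac and lateral plate markers 3 were higher, with summed signals of 352.6 to 431.9 at day 4 and 182.3 to 224.4 at day 3. Of the 3 endothelium and blood markers tested 1 was higher, Kdr (change 1.19, limma adjusted p = 0.000522). Cdh5 and Gata1 changed by -0.78 and 0.26 and did not pass. The list's summed signal was 470.6 to 659.8 at day 4 and 251.4 to 290.0 at day 3. Most of that sum was Kdr, which averaged 496.3 ± 92.7 at day 4 and 216.4 ± 19.6 at day 3. Of the 4 endoderm markers tested 2 were lower, Sox17 and Foxa2 (changes of -1.93 and -1.02, adjusted p = 0.00956 and 0.00747), with summed signals over the list of 162.0 to 210.3 at day 4 and 214.7 to 254.8 at day 3. The neural list had 1 gene tested and 0 called, and sums of 22.7 to 25.1 at day 4 and 44.5 to 58.2 at day 3. Without day 4 replicate 1, 6 of the 7 pluripotent and epiblast markers were lower. On the endoderm list 1 marker was then higher and 2 lower. That fit called 14.1% of all genes higher and 14.5% lower. The part of the marker shifts in the changes of the lipid genes was not tested. Markers of lipid-handling liver and yolk sac cells were dim, with sums over 5 genes of 34.4 to 48.5 at day 4 and 50.7 to 64.9 at day 3, as were 3 adipocyte markers, with 14.6 to 18.0 at day 4 and 13.9 to 24.3 at day 3. Apob, the only gene of the liver and yolk sac list tested, was lower (change -1.31, limma adjusted p = 0.0311). No adipocyte marker was tested.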

How the data were processed

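Affymetrix arrays were hybridised with biotin-labelled cRNA from total RNA of sorted cells after 2 rounds of amplification, per the labels' protocols. The deposited values are linear signal intensities made by the authors with MAS5, per the submitters' processing notes. Neither scaling target, software version nor detection calls could be read from the labels, which name 2 RNA extraction methods without assigning them to samples. Precision is limited by 3 arrays a day.

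Probe sets were named from the platform annotation (34958 with 1 symbol, 932 with several, 9211 not listed), and 34754 matched RefSeq by Entrez identifier with 0 symbols changed. Log2 of the deposited signal was used in R 4.3.3 with limma 3.58.1. Each gene was represented by its probe set with the highest mean, and genes with a mean over the 40th percentile of the array's probe sets (13.5 signal units) entered the test. The model had day as its only term, with eBayes trend, and its 2-sided p-values were adjusted (Benjamini-Hochberg) over 12285 genes at 0.05. Every probe set was also tested on its own. On arrays simulated from the 12285 genes, 56 of 100 changes of 1 and 19 of 100 changes of 0.5 on the log2 scale were recovered, with 2 false calls. Only these changes were planted, a far smaller share than the 22.2% called in the data, and the adjustment depends on that share. Each gene had the same spread on all simulated arrays, so these rates are not those of the real fit.

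All 30 members on the array are named. Of the other pathway lists, up to 4 called genes with the smallest p are named. The members, lists and tests were chosen with earlier results of these data known. Alternatives were an offset of 4.14 before log2, quantile normalization, median centring, filters at the 60th percentile or none, means over probe sets, no suffixed probe sets, no trend, array weights, a replicate block and leaving out each array. No 2 arrays were identical. The labels do not state whether replicate numbers pair the arrays. Deviations of same-numbered arrays correlated at -0.0005 to 0.07, and those of other pairs at -0.07 to 0.07. With so few arrays these values cannot decide it, and the main model has no pairing.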

Additional observations from a re-analysis of the deposited data

How the results depend on the processing

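Calls of Msmo1, Dhcr7, Stard4, Scd1, Fads2 and Hsd17b7 held in all 16 alternatives. Over 477 repeats of single genes, 412 kept direction and side of the threshold, 26 lost a call, 20 gained one and 19 turned sign, the last among genes that had not passed. The count of higher members was 9. It was 6 with the mean over probe sets or without the variance trend, 7 with median centring or no filter, 8 without suffixed probe sets, 10 with quantile normalization or the 60th percentile filter, and 14 with array weights. Of the 11 calls, 7 held without the trend and 8 with the mean over probe sets. The higher count ran from 6 to 14 when 1 array was left out, the highest without day 4 replicate 1. The count of lower members was 2. It was 1 without the variance trend and 3 with array weights, and ran from 1 to 4 when 1 array was left out. The median member change stayed between 0.13 and 0.21. Of all genes, 2729 were called, 1796 with the mean over probe sets, 4312 with array weights, and 1596 to 3524 when 1 array was left out, the lowest without day 3 replicate 3. With the replicate block, 12 members were higher and 2 lower and 2884 genes were called. The block added Lss, Acly and Acss2 (adjusted p = 0.046, 0.0354 and 0.0422) and lost none of the 11.

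Signs that turned were those of Sqle (0.014 with quantile normalization, 0.052 with array weights, and -0.079 to 0.029 with 1 array left out), Tm7sf2 (-0.062 with quantile normalization, -0.024 with median centring, and -0.055 to 0.075 with 1 array left out), Srebf1 (-0.074 with array weights, and -0.18 to 0.18 with 1 array left out) and Insig1 (-0.088 with array weights, and -0.14 to 0.14 with 1 array left out). With the mean over probe sets, Cyp51 was at -0.0031, Sc5d at 0.12, Srebf2 at -0.13 and Acly at -0.053. The causes of these shifts were not tested. Without detection calls no probe set could be called absent.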
